A study of Homo sapiens with 30 samples.

Results

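The genes examined here are those that encode the core histones H2A, H2B, H3 and H4 and the linker histone H1, taken as every symbol that starts with HIST1H, HIST2H, HIST3H or HIST4H. A gene was kept when its expression value, in fragments mapped per transcript length and library size (FPKM) and summed over its listed transcripts, reached 0.5 in at least 3 of the 30 samples. The FPKM files listed 70 such symbols and 52 of them met the rule, among 23616 gene symbols in all. The members were 3 of the 6 H1 symbols, 15 of the 17 for H2A, 17 of the 20 for H2B, 8 of the 13 for H3 and 9 of the 14 for H4. By cluster, 40 of 56 HIST1 symbols, 10 of 10 HIST2 symbols and 2 of 3 HIST3 symbols were members, and the single HIST4 symbol was not. Of the 18 symbols left out, 7 were at 0 in every sample. The member nearest the threshold was HIST1H2AL, whose third-highest value was 0.536 FPKM, and the nearest symbols outside it were HIST1H2BB at 0.429 and HIST3H3 at 0.415.

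RNA was measured in 2 human prostate cancer cell lines derived from LNCaP: V16D, which is castration-resistant, and MR49F, its derivative resistant to enzalutamide, an antiandrogen drug also called MDV3100. Each line is a single selected derivative, and the line and its selection history cannot be told apart. In full serum (FBS), both lines received vehicle (0.1% DMSO) or 10 µM enzalutamide for 24 hours. In charcoal-stripped serum (CSS), which lacks most steroid hormones, MR49F cells were kept for 72 hours and then given vehicle (0.1% DMSO with 0.1% ethanol), 10 µM enzalutamide, 1 nM dihydrotestosterone (DHT, the main tissue androgen), 500 nM JQ-1 (an inhibitor of the BET bromodomain proteins, which bind acetylated histones), or JQ-1 combined with enzalutamide or DHT, for 24 hours. All cells, controls included, had first been kept without enzalutamide for 96 hours in full serum. Each of the 10 conditions had 3 replicates from cells plated in triplicate, so p-values measure the spread between these wells, which may be technical. Libraries were made from polyadenylated RNA and sequenced as single reads of 50 bases.

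Most histone genes of these clusters are expressed in S phase, when new DNA has to be packed into nucleosomes. Their messenger RNA usually ends in a short stem-loop in place of a poly(A) tail. SLBP (stem-loop binding protein) holds that stem-loop and guides cutting of the 3' end, and NPAT, a target of cyclin E with CDK2, drives transcription of the clusters. Some of these genes also make polyadenylated messages, chiefly in differentiated or resting cells. Selection on poly(A) captures the polyadenylated forms, so the values below describe that fraction of histone RNA and not the whole of it. Variant histones such as H2AFZ, H3F3B and H1F0 are encoded elsewhere, carry poly(A) tails as a rule and are made throughout the cell cycle.

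The full serum libraries held 13170504 to 21154962 reads on genes and the stripped serum libraries 982130 to 1813262. This was 73.0 to 77.8% and 5.13 to 7.66% of the reads listed on a gene, on no gene or as ambiguous between genes. Reads listed as not uniquely aligned are outside that share. In the stripped serum files, 112 low genes that overlap a high gene on the opposite strand had a median CPM (counts scaled to library size) of 3.36 against 0.508 in full serum, while 9095 other low genes had 0.0402 against 0.0295. Whether reads were counted by strand is not given in the sources used here, so stripped serum comparisons were made on FPKM and full serum comparisons on counts, and values from the 2 sera are set side by side without a test. One library stood apart from its group: MR49F with vehicle in full serum, replicate 1, differed from its 2 fellows by 9.87 and 11.6 chi-square units per degree of freedom over genes, and the 28 other replicate pairs by 1.13 to 2.82. Luminal prostate markers were present in every sample (KRT8 109 to 550 FPKM, HOXB13 54.6 to 166), and the basal markers KRT5 and TP63, the leukocyte marker PTPRC and the fibroblast gene DCN stayed below 0.1 FPKM throughout. Other genes of the basal, blood, stroma and endothelium lists were detected. CD68 (blood) was at 1.31 to 6.42 FPKM and COL1A1 (stroma) at 0.616 to 1.77. KRT14 (basal) reached 0.336, PECAM1 and VWF (endothelium) 0.768 and 0.412, COL3A1 (stroma) 0.122 and HBB (blood) 0.102. RNAs that lack poly(A) tails were also found, RMRP at 2.26 to 87.5 FPKM and RPPH1 at 1.24 to 52.5.

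The stem-loop that replaces the poly(A) tail can be read directly from the genome. Positions on GRCh37 (GENCODE release 44) were found for 47 of the 52 members, and 44 of them carried a match to the histone stem-loop pattern within 300 bases after the stop codon, starting 22 to 62 bases behind it (median 36). The 44 sequences fell into 7 forms. The commonest, found in 27 members, is that of HIST1H1C and HIST2H2BE. The next form was found in 6 members, among them HIST1H2BK and HIST1H2BD, and the third in 5 H4 genes. The 16 bases of the stem-loop are in capitals below, each with 5 flanking bases, to show how far these transcripts differ at the site where their 3' end is made.
HIST1H1C (chr6:26055972-26055987, minus strand): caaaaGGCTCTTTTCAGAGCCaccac
HIST2H2BE (chr1:149857738-149857753, minus strand): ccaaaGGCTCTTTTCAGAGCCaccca
HIST1H2BD (chr6:26158815-26158830, plus strand): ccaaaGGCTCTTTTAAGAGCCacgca
HIST1H2BK (chr6:27114145-27114160, minus strand): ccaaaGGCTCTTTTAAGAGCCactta
HIST1H4H (chr6:26285359-26285374, minus strand): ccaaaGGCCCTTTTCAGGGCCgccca

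The promoters of these genes share more. In the 300 bases around the start of each gene (250 before, 50 after, RefSeq, GRCh38), the TATA box (TATAAA) was present on either strand in 65.96% of the 47 members with a promoter, against 11.95% of all 27305 promoters. The CCAAT box (CCAAT, bound by NF-Y) was present in 85.11% against 35.7%, including every H1, H2A, H2B and H3 promoter and 1 of 8 H4 promoters. The octamer (ATTTGCAT, bound by OCT1), which is part of the classical H2B promoter, was present in 46.81% against 1.802%, in 11 of 15 H2B and 10 of 14 H2A promoters. H2A and H2B genes often lie head to head, so some of these windows overlap each other. The E-box CACGTG, which MYC binds, was found in 0 of the 47 windows and in 7.435% of all promoters. The 100 bases before the start of 5 genes follow, with TATA box, CCAAT box and octamer in capitals on either strand, since these genes recur in the comparisons below, and the coordinates are on GRCh37.
HIST1H1C (chr6:26056699-26056798, minus strand): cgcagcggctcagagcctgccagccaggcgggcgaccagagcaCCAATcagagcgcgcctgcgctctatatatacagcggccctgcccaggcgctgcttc
HIST1H2AG (chr6:27100722-27100821, plus strand): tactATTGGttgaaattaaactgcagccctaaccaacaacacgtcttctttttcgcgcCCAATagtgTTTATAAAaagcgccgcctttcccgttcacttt
HIST1H2BK (chr6:27114638-27114737, minus strand): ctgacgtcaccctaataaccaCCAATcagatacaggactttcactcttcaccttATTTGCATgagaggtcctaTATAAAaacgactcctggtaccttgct
HIST2H2BE (chr1:149858233-149858332, minus strand): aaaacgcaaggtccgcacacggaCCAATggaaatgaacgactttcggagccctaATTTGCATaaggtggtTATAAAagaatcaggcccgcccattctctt
HIST1H4E (chr6:26204738-26204837, plus strand): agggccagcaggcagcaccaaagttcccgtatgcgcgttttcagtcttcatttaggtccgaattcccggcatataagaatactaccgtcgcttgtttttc

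A small number of genes supplied most of the polyadenylated histone RNA. The 3 highest members of each condition made up 41 to 49% of the summed FPKM of all members and the 8 highest 64 to 76%. HIST2H2AA3 (H2A), HIST1H1C (H1) and HIST2H2BE (H2B) were the 3 highest in each JQ-1 condition, and HIST1H2BK (H2B) was the highest member in full serum, in both lines and with both treatments. In stripped serum with vehicle, HIST2H2AA3 was at 277, 289 and 296 FPKM, HIST2H2BE at 103, 108 and 113 and HIST1H1C at 124, 134 and 128. The median member in the same condition was at 4.23 FPKM, and 10 of the 52 members averaged below 1. FPKM and counts parted for HIST1H2BE, which was at 12.1, 13.0 and 14.8 FPKM in MR49F with vehicle in full serum and 1.21, 0.911 and 1.23 in stripped serum. For the same libraries the count files assigned it 1, 3 and 5 and 6, 3 and 6 reads. The order of its levels between the sera is not read from either. HIST2H2AA3, HIST2H4B, HIST2H3C and HIST1H2AD had 0 reads in every count file, so they are described by FPKM alone, and genes with near-identical copies (HIST1H4J with HIST1H4K, HIST2H2AA3 with its duplicate) may share reads that the estimation divided between them. The values of HIST2H2AA3, HIST2H4B and HIST2H3C are sums of 2 entries of the same transcript. Each HIST2H2AA3 entry averaged 144 FPKM with vehicle in stripped serum and 277 with JQ-1 alone.

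**Figure D1:**
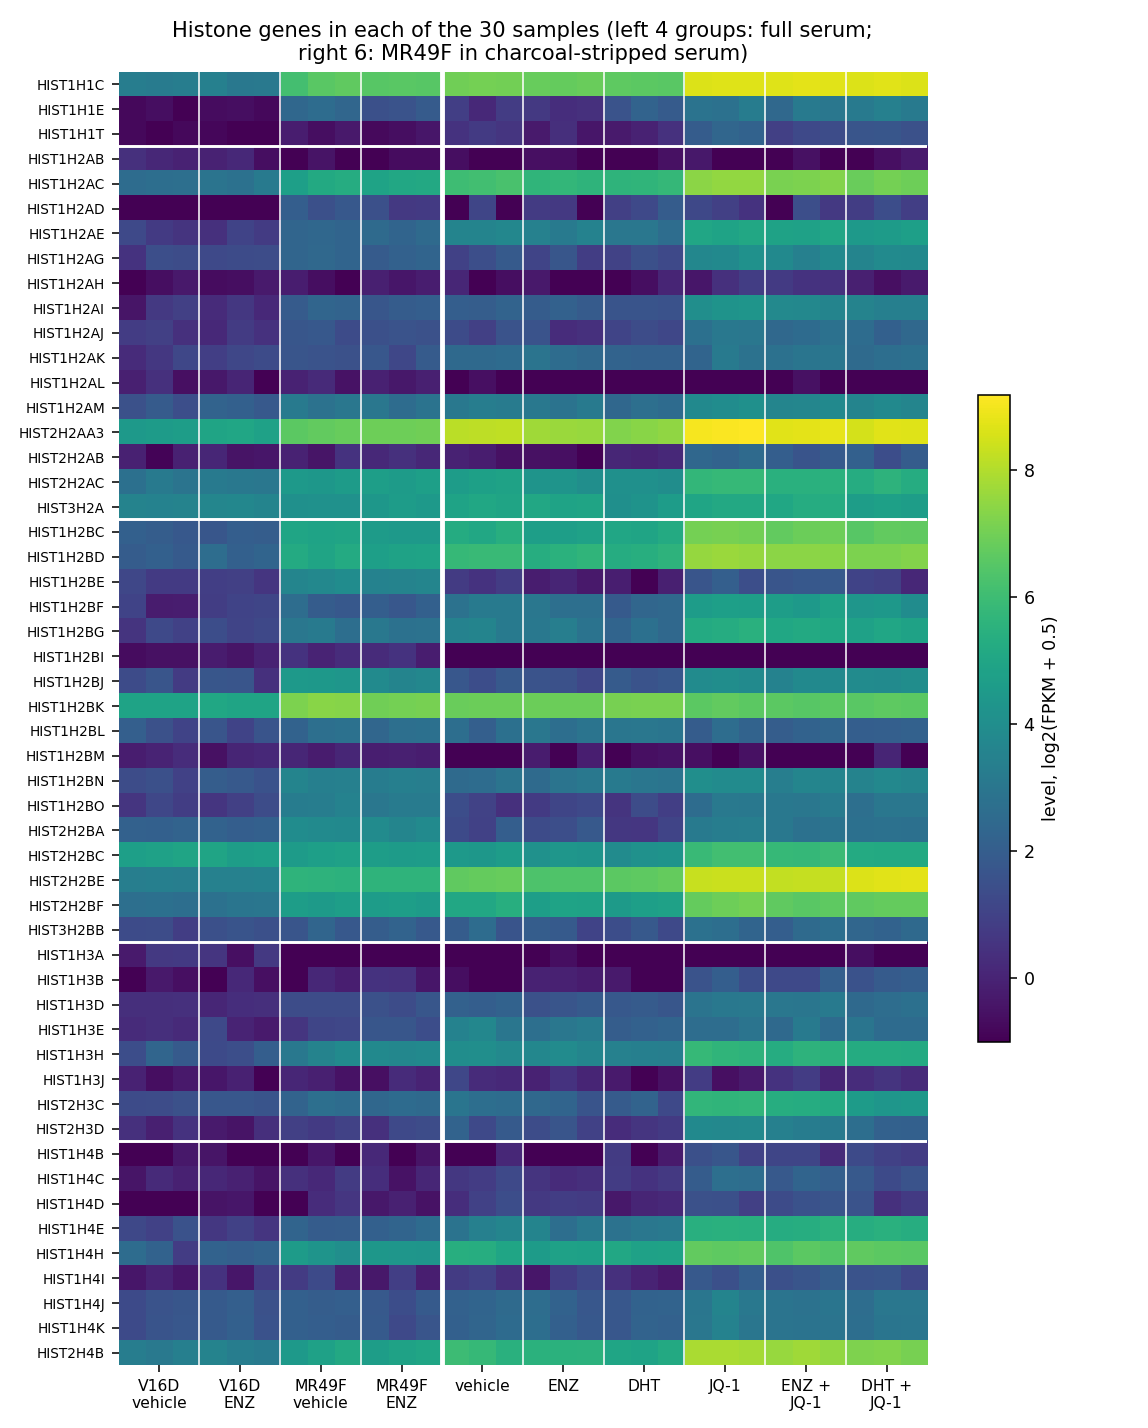
Heat map of log2(FPKM + 0.5) for the 52 histone genes (rows, grouped by family) in the 30 samples (columns, grouped by condition); yellow cells are highest and dark violet cells lowest. The 3 JQ-1 conditions and, less so, the other MR49F samples are brighter than the 6 V16D samples for most rows.

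The summed FPKM of the members ordered the conditions as follows. V16D had the lowest sums, 191, 201 and 195 with vehicle and 224, 212 and 207 with enzalutamide. MR49F in full serum had 744, 804 and 834 with vehicle and 753, 767 and 781 with enzalutamide, which overlapped through vehicle replicate 1 alone. In stripped serum MR49F had 1126, 1164 and 1176 with vehicle, 929, 923 and 919 with enzalutamide and 836, 864 and 916 with DHT. The 3 JQ-1 conditions were highest, with 2857, 2991 and 2991 for JQ-1 alone, 2518, 2627 and 2641 with enzalutamide and 2392, 2551 and 2480.0 with DHT. Within stripped serum, vehicle lay above enzalutamide and DHT, and every JQ-1 sum above every sum without JQ-1. The sums of the 2 combinations with JQ-1 overlapped. In bulk RNA, a larger sum from more cells that express a gene and from more RNA per cell cannot be told apart.

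**Figure D2:**
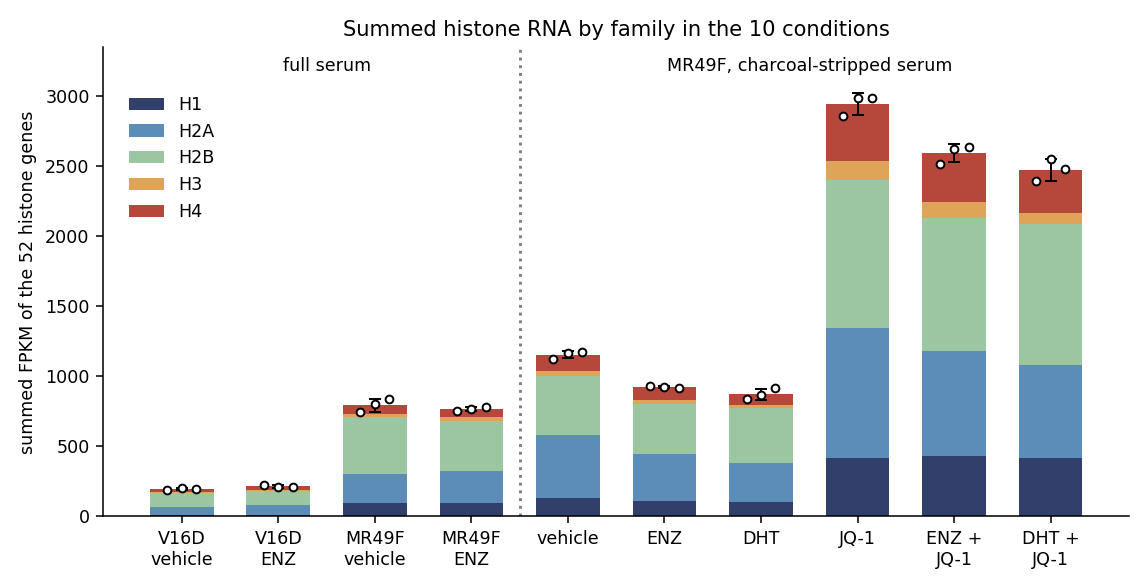
Summed FPKM of the 52 histone genes in each condition, bars stacked by family (mean of 3 replicates), points for the replicate sums and error bars for their SD. The sums run from 196 in V16D with vehicle to 2946 in MR49F with JQ-1 in stripped serum.

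The first comparison asked how the resistant line differs from its parental line in full serum with vehicle. Histone genes were higher in MR49F: 27 members could be tested with edgeR's quasi-likelihood test and 23 were higher and 1 lower, against 31.9% of all genes tested that were higher and 31.8% that were lower. Of the 23, 20 were at least 2-fold higher, which 4.6% of all genes were. Members with few V16D reads could enter this test through MR49F alone, so these counts depend in part on the filter. HIST1H1E had 3 V16D vehicle reads in all and HIST1H2BF had 8, 2 and 2. The test of enzalutamide within V16D took 22 members. The median difference over the 27 was 1.78 on the log2 scale. By family, 2 of 2 H1 genes, 7 of 8 H2A, 10 of 12 H2B, 3 of 3 H3 and 1 of 2 H4 genes were higher. The sum over all members was 4.06 times as high, and 3.62 times without HIST1H1C, HIST2H2AA3 and HIST2H2BE. Without MR49F replicate 1, which stood apart, 22 members were higher and 0 lower, against 34.8% and 33.8% of all genes, HIST1H1C differed by 3.39 and the sum was 4.19 times as high. Of the 7 RNAs listed as lacking poly(A) tails, 4 had FPKM values. These summed to 7.22 to 7.40 FPKM in V16D and 8.45 to 22.4 in MR49F, and the 1 that could be tested was higher (0.80). Their part in the difference was not tested.

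HIST1H1C, a linker histone expressed in most tissues, was at 9.54, 8.96 and 9.50 FPKM in V16D and 69.2, 94.6 and 104 in MR49F. The groups lay far apart, with a log2 difference in counts of 3.26 (standard error 0.14, adjusted p = 2.83e-09). HIST1H2BK, an H2B gene, was at 29.5, 29.7 and 29.2 FPKM in V16D and 142, 164 and 162 in MR49F, a log2 difference of 2.37 (standard error 0.058, adjusted p = 2.58e-11). HIST2H2BE, an H2B gene known to make a polyadenylated message, was at 9.68, 9.92 and 9.80 FPKM in V16D and 48.8, 47.2 and 45.6 in MR49F, a log2 difference of 2.27 (standard error 0.061, adjusted p = 5.1e-11). All 3 V16D replicates of these genes sat below all 3 of MR49F. HIST1H2AC (H2A) differed by 2.54, HIST1H2BD (H2B) by 2.71 and HIST1H4H (H4) by 2.51, with adjusted p of 4.64e-08, 7.32e-09 and 4.47e-06. The H2B genes HIST1H2BJ (3.47, standard error 0.24, adjusted p = 2.08e-07) and HIST1H2BC (3.30, standard error 0.17, adjusted p = 1.61e-08) had the largest differences among the other members that had over 3 reads in V16D.

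Another linker histone gene, HIST1H1E, was near absent from V16D. The 3 V16D vehicle libraries held 3 of its reads in all and the 3 MR49F libraries 188, a ratio of 67.0 per library total (95% interval 22.6 to 328, counting error only), with FPKM of 0.0774, 0.143 and 0 and 4.74, 5.62 and 4.68. The single lower call was HIST2H2BC, an H2B-like sequence, at 26.4, 27.5 and 29.9 FPKM in V16D and 23.7, 26.6 and 27.8 in MR49F (-0.23, standard error 0.092, adjusted p = 0.0449 in counts), a call lost without any 1 of the 6 libraries (adjusted p up to 0.147). Counts and FPKM parted for HIST2H2AC (H2A). The count files assigned it 10, 20 and 15 reads in V16D and 11, 14 and 11 in MR49F, with no difference called by edgeR (adjusted p = 0.649). Its FPKM were 6.34, 8.60 and 7.08 and 22.2, 20.6 and 23.3. HIST1H2BD has 2 listed transcripts. The first was near 0 in V16D, at 0.000108, 0.628 and 2.72e-05 FPKM, and averaged 19.4 in MR49F, while the second averaged 3.26 and 15.5. The division between transcripts was estimated from single reads of 50 bases.

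Enzalutamide in full serum moved few histone genes in either line. In V16D, 22 members were tested and edgeR called 0, with 2 at an unadjusted p under 0.05, against 18.2% of all genes higher and 19.3% lower. Limma on FPKM called 5 members higher: HIST1H2AC, HIST2H2AA3, HIST2H2BE, HIST2H2BF and HIST2H3C. The share of all genes in that fit is not set beside this count. The sum of the members was 1.09 times as high, with no overlap between the groups. In MR49F, 28 members were tested, 0 were higher and 4 lower, against 3.86% and 4.62% of all genes. They were HIST1H1E (-0.89, standard error 0.18, adjusted p = 0.0139), HIST1H2BJ (-0.82, standard error 0.15, adjusted p = 0.0062), HIST1H2BD (-0.34, standard error 0.092, adjusted p = 0.0484) and HIST1H2BK (-0.29, standard error 0.053, adjusted p = 0.00775).

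HIST1H1E stood at 4.74, 5.62 and 4.68 FPKM with vehicle and 2.30, 2.56 and 3.31 with enzalutamide, and HIST1H2BJ at 21.7, 20.7 and 19.9 and 14.3, 11.7 and 12.6. Both pairs of groups were separate. The HIST1H2BD call was lost without enzalutamide replicate 1, 2 or 3 or vehicle replicate 3, that of HIST1H1E without enzalutamide replicate 1 or 2 or vehicle replicate 2, and that of HIST1H2BK without enzalutamide replicate 1, with adjusted p up to 0.167. Without vehicle replicate 1, which stood apart, 1 member was higher and 5 lower, against 7.96% and 9.85% of all genes, with HIST1H1E at -0.91, HIST1H2BJ at -0.78, HIST1H2BD at -0.27 and HIST1H2BK at -0.33, all called. HIST1H1C, HIST1H2AC, HIST1H4H and HIST2H2BE differed by 0.039, -0.041, -0.025 and 0.011, with adjusted p from 0.85 to 0.934. The same genes in V16D differed by -0.11, 0.30, 0.24 and 0.11, and HIST1H2BD and HIST1H2BK by 0.33 and 0.051, none called.

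The difference between the lines in their response was tested as an interaction. Of 28 members, 0 were called higher and 2 lower, against 4.19% and 2.76% of all genes. HIST1H2BD went from 3.38, 3.88 and 3.14 to 5.65, 3.91 and 4.36 FPKM in V16D and from 36.8, 30.7 and 37.0 to 26.0, 28.4 and 29.4 in MR49F, an interaction of -0.67 (standard error 0.20, adjusted p = 0.0477). HIST1H2BK went from 29.5, 29.7 and 29.2 to 32.6, 30.3 and 30.1 in V16D and from 142, 164 and 162 to 124, 134 and 135 in MR49F, an interaction of -0.35 (standard error 0.077, adjusted p = 0.00668). In MR49F every enzalutamide replicate of both genes was below every vehicle replicate, and in V16D neither change was called. The HIST1H2BD call was lost in 8 of 12 fits that each left out 1 library (each except the 3 of MR49F with vehicle and V16D with enzalutamide replicate 2), with adjusted p up to 0.205. Without MR49F vehicle replicate 1 the interactions were -0.60 and -0.38, both called, against 6.14% of all genes higher and 4.24% lower.

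In stripped serum, both enzalutamide and DHT lowered histone RNA against vehicle. This was tested with limma on log2(FPKM + 0.5), on which scale the differences of low genes are understated. With enzalutamide, 43 members were tested, 0 were higher and 15 lower, against 18.2% and 18.6% of all genes, and the median was -0.24. With DHT, 44 were tested, 5 were higher and 27 lower, against 27.5% and 43.7% of all genes, and the median was -0.44 beside a median of -0.10 over all genes. The summed FPKM was 1.25 times lower with enzalutamide and 1.32 times lower with DHT. With DHT, the H3 sum fell the most, 1.84 times (6 of 6 tested H3 genes lower), then H2A 1.62 times, and the H2B sums overlapped. In the DHT test, 3 members were below 0.5 FPKM in every replicate of 1 group, among them the H3 gene HIST1H3J. They entered these counts through the other group alone. On counts, edgeR and DESeq2 called 1 and 0 members with enzalutamide and 4 and 2 with DHT, given here without the shares of all genes in those fits. The 2 comparisons share the vehicle samples, so their likeness is not read as a result.

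HIST1H1C was at 124, 134 and 128 FPKM with vehicle, 111, 108 and 116 with enzalutamide and 100.1, 97.1 and 95.8 with DHT. All treated samples lay below all vehicle samples, with log2 changes of -0.21 (standard error 0.047, adjusted p = 0.00904) with enzalutamide and -0.39 (standard error 0.042, adjusted p = 4.91e-05) with DHT. HIST2H2AA3 was at 209, 200.3 and 193 with enzalutamide and 150.1, 164 and 181 with DHT against 277, 289 and 296 with vehicle, -0.52 and -0.80 on the log2 scale. HIST2H2BE fell with enzalutamide, -0.40 (standard error 0.044, adjusted p = 0.000208), and was not called with DHT, -0.079 (standard error 0.051, adjusted p = 0.192), where centring the samples on their medians turned its sign. HIST1H2AC and HIST1H2BD fell with both (-0.45 and -0.43; -0.37 and -0.44). HIST1H4H fell with enzalutamide, -0.49 (standard error 0.10, adjusted p = 0.00539). Its DHT call, -0.29 (standard error 0.11, adjusted p = 0.0433), was made on overlapping groups and was lost without DHT replicate 2 or 3 or vehicle replicate 1 or 2.

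The lower calls with the largest change were, for enzalutamide, HIST1H2BE (-0.83), the testis linker histone HIST1H1T (-0.68), HIST2H3C (-0.64), HIST2H2AC (-0.57), HIST1H4C (-0.53) and HIST1H2BC (-0.52). The fall of HIST2H2AC is by FPKM alone. The count files assigned it 4, 3 and 1 reads with vehicle and 4, 3 and 4 with enzalutamide. In stripped serum those files placed 5.13 to 7.66% of reads on genes, so they may miss reads that the FPKM include. The call of HIST1H1T was lost without enzalutamide replicate 1 or 3 or vehicle replicate 2, that of HIST2H3C without vehicle replicate 1 and that of HIST1H4C without enzalutamide replicate 2 or 3 or vehicle replicate 3, with adjusted p up to 0.0724. For DHT the largest falls were in the H3 genes HIST1H3E (-1.26) and HIST2H3D (-1.26), then HIST1H4D (-0.95). HIST1H3J (-1.13, H3) and HIST1H2BE (-1.10) were also called lower. Both were below 0.5 FPKM in every DHT replicate. They passed the filter through the vehicle samples alone, so their falls are not ranked. HIST1H3E went from 10.8, 12.4 and 7.58 FPKM to 3.49, 3.92 and 4.33, without overlap. Of the 25 members that averaged at least 5 FPKM over all 30 samples, 2 were higher and 18 lower with DHT and 0 and 11 with enzalutamide, against 34.3 and 36.9%, and 22.5 and 17.2%, of all genes at that level.

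Against this, 5 members rose with DHT. The linker histone gene HIST1H1E went from 1.34, 0.626 and 1.24 FPKM with vehicle and 1.10, 0.769 and 0.815 with enzalutamide to 2.58, 4.18 and 3.33 with DHT, 1.31 (standard error 0.21, adjusted p = 0.000523) against vehicle. HIST1H2BK rose slightly, from 115, 120.0 and 119.7 to 136, 138 and 141, by 0.23 (standard error 0.038, adjusted p = 0.000712), and with enzalutamide it differed by 0.019 (adjusted p = 0.733). HIST1H2BL rose by 0.49. HIST1H2BN rose by 0.34 and HIST1H2AD by 1.67, both with overlapping groups, and HIST1H2AD with vehicle was listed near 0 in 2 of 3 libraries (0.000256, 1.69 and 0.000220 FPKM).

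DHT against enzalutamide compared an androgen with an antiandrogen directly. Here 41 members were tested, 7 were higher and 15 lower with DHT, against 19.9% and 37% of all genes, with a median of -0.13 beside -0.08 over all genes. After centring, the split was 9 higher and 13 lower. HIST1H1E (1.46), HIST2H2BE (0.32), HIST1H2BC (0.33) and HIST1H2BK (0.21) were higher with DHT. HIST1H3E (-0.86), HIST2H3D (-0.81), HIST1H4D (-0.81) and HIST2H2BA (-0.74) were lower. HIST1H1C was lower, -0.19 (adjusted p = 0.00504), a call lost on centring. The HIST1H2AD call (1.22) was lost without DHT replicate 2 or 3 or enzalutamide replicate 3. HIST1H2AC, HIST1H2BD and HIST1H4H differed by 0.016, -0.066 and 0.20, not called.

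JQ-1 raised histone RNA on every background. Against vehicle, 47 members were tested and 37 were higher and 2 lower, against 31.4% and 42.7% of all genes; 32 were at least 2-fold higher, which 2.53% of all genes were. With enzalutamide present, 41 of 47 were higher and 2 lower, against 30.4% and 44% (34 at least 2-fold higher, against 2.89%). With DHT present, 43 of 46 were higher and 2 lower, against 34.6% and 42.7% (32 and 5.13%). The medians were 1.54, 1.62 and 1.38, beside -0.07, -0.09 and -0.06 over all genes. These 3 comparisons share no samples, and of 46 members tested in all 3, 37 were higher in each. The share of all genes higher in all 3 is not given here. The sums rose 2.55, 2.81 and 2.84 times, and by family H1 3.21, H2A 2.05, H2B 2.52, H3 3.35 and H4 3.58 times for JQ-1 alone.

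HIST1H2AB, HIST1H2AL, HIST1H2BI, HIST1H2BM and HIST1H3A were too low to be tested for JQ-1 alone. Members low in one group enter these counts only through the other: 2 of those tested in the first comparison were below 0.5 FPKM in every replicate of 1 group, 4 in the second and 3 in the third. Among the members that averaged at least 5 FPKM in the group without JQ-1, a limit chosen after the values were seen, 19 of 24, 19 of 23 and 18 of 20 were higher and 2 lower each time, against 32.2, 29.5 and 32.1% of all genes at that level higher and 44.2, 47.5 and 47.6% lower. On counts edgeR called 20, 17 and 16 members higher and 0, 0 and 1 lower, given here without the shares of all genes in those fits. Of the RNAs without poly(A) tails 4 were tested, with 0 higher and 1 lower for JQ-1 alone, 2 and 0 on enzalutamide and 1 and 0 on DHT, at medians of 0.10, 1.02 and 0.54. The 4 RNAs of that list with FPKM values summed to 12.9 to 23.2 FPKM with vehicle, 13.3 to 19.3 with enzalutamide and 23.6 to 33.4 with DHT, and to 14.6 to 26.0, 13.4 to 128 and 15.7 to 88.0 with JQ-1 added. Their part in the histone differences was not tested.

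**Figure D3:**
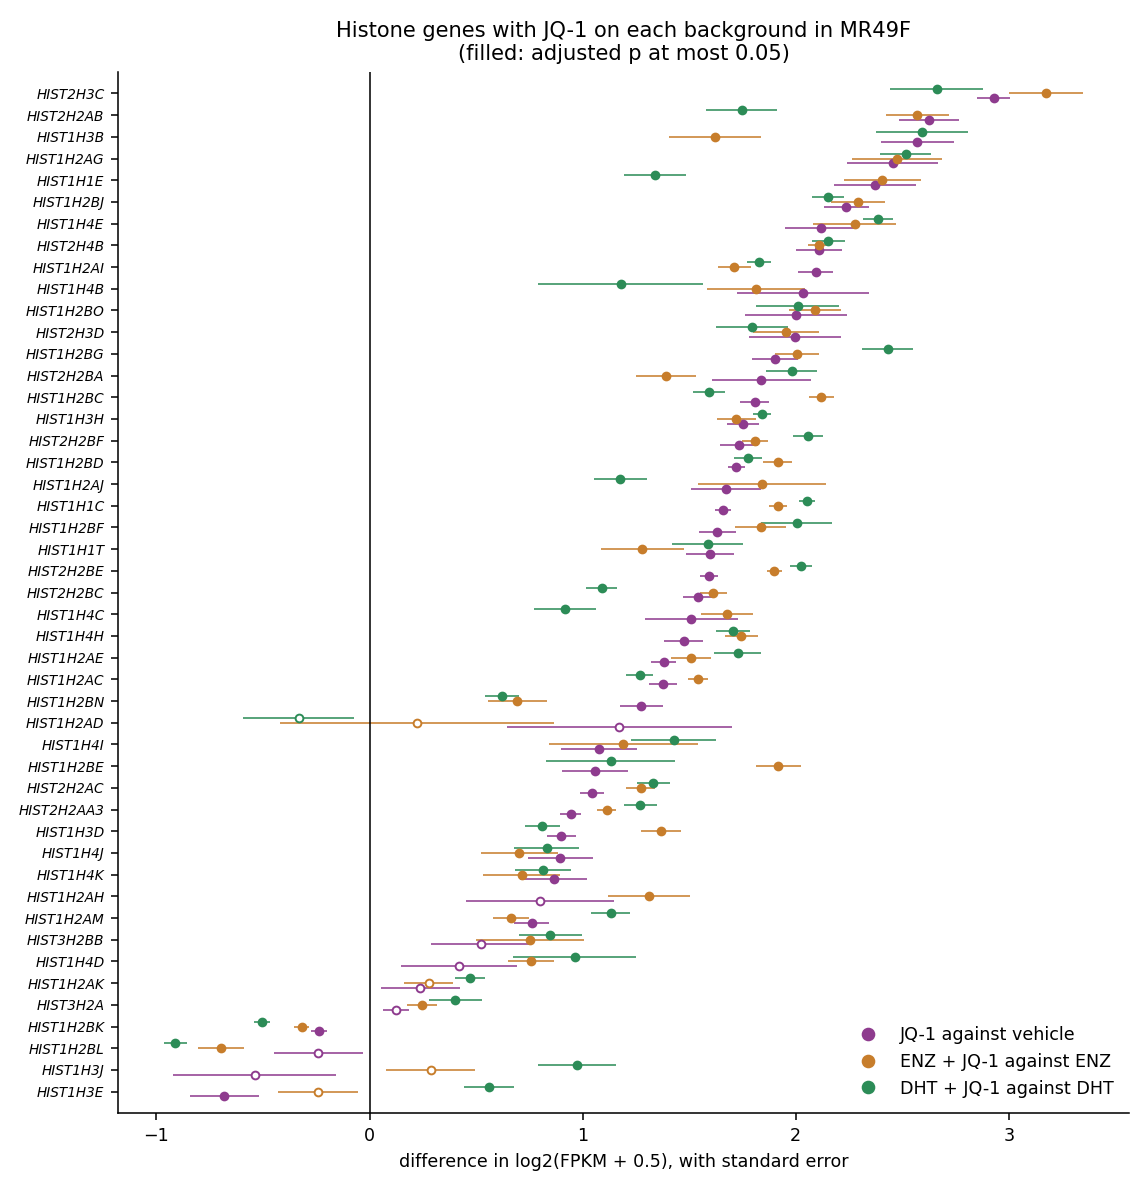
Log2 change of each of the 47 tested histone genes with JQ-1 alone, with enzalutamide and with DHT, each against the same treatment without JQ-1; bars are standard errors and filled points passed an adjusted p of 0.05. Most points lie between 0.5 and 2.5, with HIST1H2BK below 0 in all 3.

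HIST1H1C rose from 124, 134 and 128 FPKM to 404, 407 and 411 with JQ-1, from 111, 108 and 116 to 412, 431 and 422 on enzalutamide and from 100.1, 97.1 and 95.8 to 404, 419.8 and 397 on DHT. The log2 changes were 1.66 (standard error 0.037, adjusted p = 1.54e-08), 1.92 (standard error 0.041, adjusted p = 6.68e-09) and 2.05 (standard error 0.039, adjusted p = 9.59e-09). HIST2H2BE rose from 103, 108 and 113 to 320.1, 329.7 and 332, from 81.3, 81.7 and 83.0 to 299, 308 and 314 and from 98.5, 101 and 108 to 397, 427 and 431. Each JQ-1 sample of both genes was above each sample without it, and HIST2H2BE changed by 1.59, 1.90 and 2.02. HIST1H2AC changed by 1.38, 1.54 and 1.27, HIST1H2BD by 1.72, 1.92 and 1.77, and HIST1H4H by 1.47, 1.74 and 1.71, all called.

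**Figure D4:**
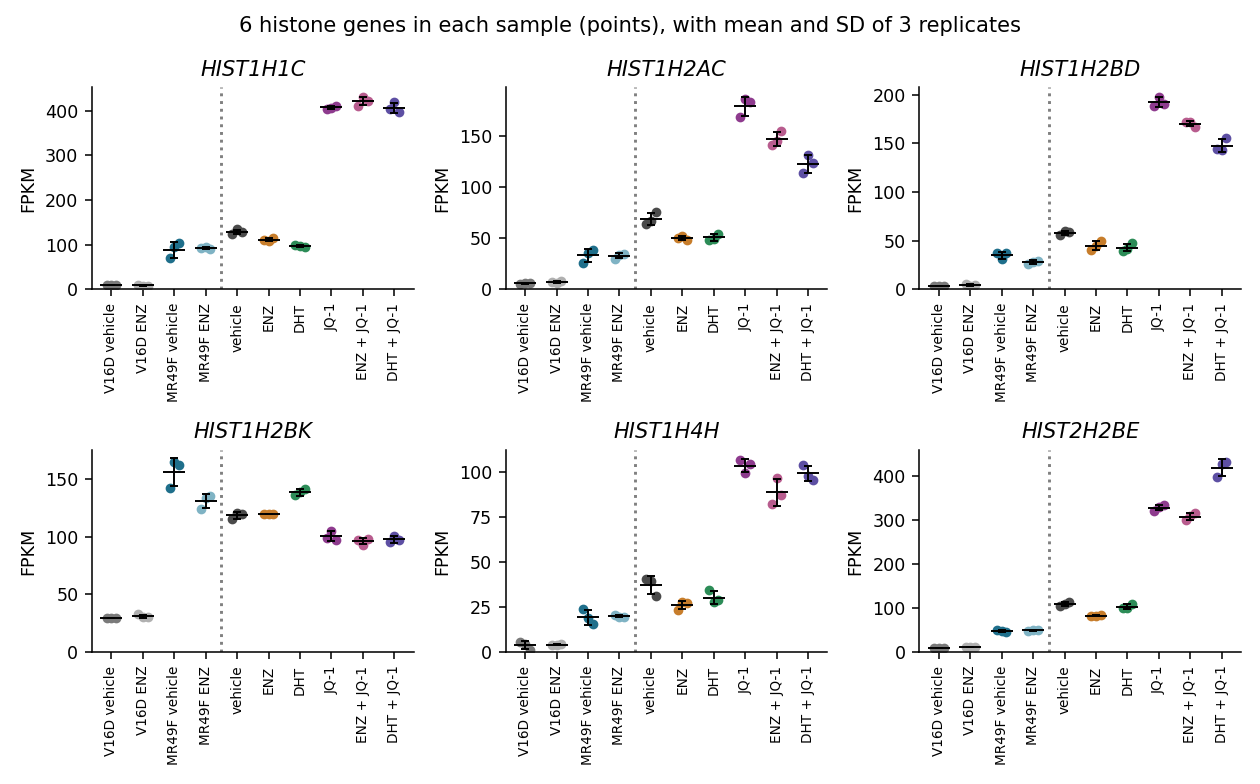
FPKM of HIST1H1C, HIST1H2AC, HIST1H2BD, HIST1H2BK, HIST1H4H and HIST2H2BE in each replicate (points) of the 10 conditions, with the mean as a dash and its SD as an error bar. For every gene except HIST1H2BK the JQ-1 conditions are the highest, and HIST1H2BK is highest in MR49F with vehicle in full serum.

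On the log2(FPKM + 0.5) scale the largest rise on each background was that of HIST2H3C, which encodes H3. It went from 7.18, 5.95 and 5.61 FPKM to 50.8, 49.7 and 51.3, from 4.87, 4.32 and 2.60 to 40.2, 38.6 and 36.6 and from 3.25, 4.28 and 1.89 to 23.7, 20.2 and 21.2, 2.93 (standard error 0.077, adjusted p = 3.19e-08), 3.17 and 2.66. HIST1H2AG (H2A) rose on all 3 backgrounds, from 1.48, 2.21 and 3.24 to 12.6, 13.6 and 17.4 FPKM with JQ-1 alone (2.46, 2.48 and 2.52). HIST1H4E (H4) rose from 6.80, 10.4 and 12.0 to 42.1, 44.1 and 42.5 (2.12, 2.28 and 2.39). HIST2H2AB (2.62) and HIST1H3B (2.57) were below 0.5 FPKM with vehicle, where that scale understates a change, and at 4.74, 4.17 and 5.18 and 2.58, 3.61 and 2.18 with JQ-1. Both passed the filter through the JQ-1 samples alone. The count files assigned 1, 0 and 0 vehicle reads to HIST2H2AB and 0, 0 and 0 to HIST1H3B, so their rise is not ranked against that of HIST2H3C. HIST1H1E changed by 2.37, HIST1H2BJ by 2.24, HIST1H2BG by 2.43 on DHT and HIST2H4B by 2.15 on DHT.

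HIST1H2BK, whose stem-loop and promoter are printed above, was the single member lower on all 3 backgrounds by FPKM. It went from 115, 120.0 and 119.7 to 98.8, 105 and 97.0 with JQ-1, from 119.7, 119.8 and 119.8 to 96.8, 93.1 and 97.9 on enzalutamide and from 136, 138 and 141 to 94.9, 100.3 and 97.1 on DHT. The groups did not overlap and the changes were -0.24 (standard error 0.039, adjusted p = 0.000647), -0.32 (standard error 0.035, adjusted p = 4.26e-05) and -0.50 (standard error 0.037, adjusted p = 4.93e-06). On counts, edgeR gave 0.065 and 0.041 for the first and second (adjusted p = 0.635 and 0.817), so the direction in them depends on the measure. HIST1H2BL was lower with JQ-1 on enzalutamide (-0.70) and DHT (-0.91), from 7.72, 5.85 and 7.02 to 3.56, 4.08 and 4.46 and from 7.43, 7.79 and 7.25 to 3.60, 3.73 and 3.93 FPKM. HIST1H3E was lower with JQ-1 alone (-0.68), not called on enzalutamide and higher on DHT (0.56).

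Whether DHT changed the size of the JQ-1 effect was tested as an interaction. Of 47 members, 8 had a larger and 6 a smaller log2 change with DHT, against 24.4% and 21.6% of all genes. HIST1H1C (0.39, standard error 0.05, adjusted p = 6.48e-05) and HIST2H2BE (0.43, standard error 0.066, adjusted p = 0.000253) rose more on DHT, and HIST1H2BK fell more (-0.27, standard error 0.052, adjusted p = 0.00127). The largest positive value among the named genes was that of HIST1H3E, 1.24 (standard error 0.23, adjusted p = 0.000895), and the largest negative one that of HIST1H1E, -1.03 (standard error 0.28, adjusted p = 0.00951), which DHT alone had raised. HIST2H2AB (-0.88), HIST1H2BN (-0.65), HIST1H2BL (-0.67) and HIST1H2BG (0.53) were also called, the latter 2 with calls lost in 9 and 7 of 12 fits without 1 library, at adjusted p up to 0.0962 and 0.0847. HIST2H2AB was below 0.5 FPKM in every vehicle replicate. Its value depends on the 0.5 added before the logarithm and is not read as an effect of DHT. HIST1H2AC, HIST1H2BD and HIST1H4H differed by -0.11, 0.053 and 0.23, not called. The level of HIST1H1C with JQ-1 was close all the same, at a mean of 408 FPKM without and 407 with DHT. That did not hold for the members together. Their sum averaged 2946 FPKM with JQ-1 alone and 2474 with DHT and JQ-1.

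The 3' ends gave a division that the selection rule had not used. For 13 members with a stem-loop, the annotated gene ran more than 100 bases past it, and for 31 it ended there. The first group, which includes HIST1H2AC, HIST1H2BC, HIST1H2BD, HIST1H4H and HIST2H2BE, had a median of 36.4 FPKM in stripped serum with vehicle, and the second, which includes HIST1H1C and HIST1H2BK, 1.98 FPKM. The median JQ-1 changes were 1.59 (11 of 13 tested higher) and 1.38 (20 of 27 higher, 1 lower), and those of the MR49F to V16D difference 2.27 and 1.45. The median JQ-1 change of members with and without each promoter motif was 1.70 and 1.37 for the TATA box, 1.60 and 1.47 for the CCAAT box and 1.61 and 1.54 for the octamer. The median DHT changes were -0.44 and -0.45, -0.45 and -0.31, and -0.26 and -0.50. These are descriptions of small groups that share promoters and read mapping.

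Genes that process, carry or replace histones, and genes of S phase, were followed as lists. The S-phase list (14 genes, among them PCNA, the MCM helicase subunits, RRM2 and TYMS) summed to 164 ± 6.45 FPKM (SD, n = 3) with vehicle in stripped serum, 296 ± 11.3 with enzalutamide and 365 ± 7.78 with DHT. All 14 rose with both, by medians of 0.86 and 1.13, in the samples in which the histone sum fell. Among all genes 18.2% rose with enzalutamide and 27.5% with DHT. With JQ-1 the list summed to 123 ± 1.69, 128 ± 2.95 and 124 ± 3.48 FPKM alone, with enzalutamide and with DHT. It fell in 11 (2 rose), 14 and 14 genes, by medians of -0.61, -1.54 and -1.77, in the samples in which the histone sum rose. Among all genes 42.7, 44 and 42.7% fell in these 3 comparisons. In full serum the list summed to 808 ± 2.56 in V16D and 679 ± 30.7 in MR49F with vehicle. In MR49F 10 of its genes were lower and 1 higher, against 31.8% and 31.9% of all genes. Enzalutamide lowered 12 of 14 in V16D and 8 of 14 in MR49F, against 19.3% and 4.62% of all genes. The part of the cell cycle in the histone differences was not tested.

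**Figure D5:**
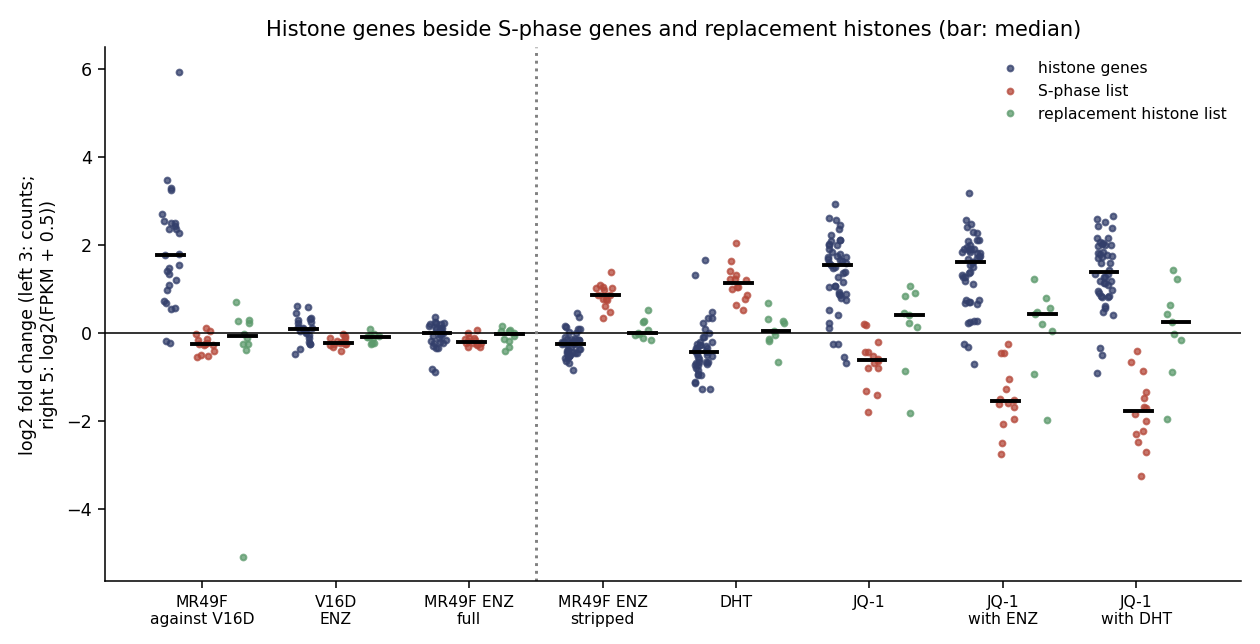
Log2 change of the histone genes, the S-phase list and the list of replacement histones in each comparison (points, genes; bars, medians; H3F3A left out for its unstable estimate). In the 3 JQ-1 comparisons the histone median lies at 1.54, 1.62 and 1.38 and the S-phase median at -0.61, -1.54 and -1.77.

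In the processing and transcription list (16 genes), JQ-1 left 3 higher and 8 lower on vehicle, 0 higher and 10 lower on enzalutamide and 1 higher and 12 lower on DHT. The medians were -0.12, -0.36 and -0.32. Among all genes 31.4, 30.4 and 34.6% were higher and 42.7, 44 and 42.7% lower on these backgrounds. E2F1, a transcription factor of the G1 to S transition, changed by -0.70, -1.42 and -1.70. SLBP changed by 0.44, 0.029 (adjusted p = 0.64) and -0.21, and NPAT by 0.0041, -0.10 and -0.13, with no call. SLBP was at 25.8, 27.4 and 27.0 FPKM with vehicle and 35.2, 37.2 and 37.2 with JQ-1. Without JQ-1, SLBP rose with enzalutamide (0.37) and DHT (0.60), E2F1 by 0.73 and 1.11 and CDK2 by 0.66 and 1.06. In the list 6 were higher and 0 lower with enzalutamide, against 18.2% and 18.6% of all genes. With DHT 7 were higher and 4 lower, against 27.5% and 43.7%. Between the lines, NPAT was lower in MR49F (-0.42), as was CASP8AP2, a partner in the histone locus body (-1.39), LSM10 was higher (0.69) and SLBP was not called (-0.12).

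The chaperone list (20 genes) holds proteins that carry and deposit histones. In it JQ-1 left 5 higher and 9 lower, 2 higher and 14 lower and 4 higher and 14 lower on the same backgrounds. The medians were -0.12, -0.19 and -0.29. Among all genes 31.4, 30.4 and 34.6% were higher and 42.7, 44 and 42.7% lower. The chaperone counts on vehicle are close to that share. CHAF1A, a subunit of the CAF-1 complex that deposits histones at replication forks, changed by -1.01, -1.62 and -1.94, from a mean of 11.7 FPKM to 2.68 on DHT. ASF1B changed by -0.43, -1.14 and -1.53, and rose with enzalutamide (0.86) and DHT (1.07) without it. ANP32E, a chaperone of H2AFZ, fell with DHT (-1.10) and with JQ-1 (-1.08). The interaction with DHT was called for ASF1B (-1.10), HJURP (-0.83) and CHAF1A (-0.93).

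The replacement histones (12 genes, 10 tested) moved in both directions with JQ-1, with 7 higher and 2 lower, 6 higher and 2 lower and 5 higher and 3 lower. The medians were 0.44, 0.32 and 0.35. Among all genes 31.4, 30.4 and 34.6% were higher and 42.7, 44 and 42.7% lower. H1F0, the linker histone of resting and differentiated cells, rose by 0.90, 1.23 and 1.44, from 37.0, 38.4 and 39.1 FPKM with vehicle to 69.8, 72.1 and 73.3 with JQ-1. H2AFX, the H2A variant phosphorylated at DNA breaks, rose by 1.07, 0.47 and 0.26. H2AFZ changed by -0.86, -0.94 and -0.88 on the log2 scale, and the macroH2A gene H2AFY2 by -1.80, -1.96 and -1.95. Between the lines, H2AFJ was lower in MR49F (-5.08), and H1F0 (0.70) and H2AFX (0.28) were higher while H2AFZ was not called (0.29). H1F0 fell with enzalutamide in both lines in full serum (-0.25 in V16D, -0.41 in MR49F). The FPKM of H3F3A were erratic between replicates, 9.47, 0.00234 and 0.00286 with vehicle in stripped serum, and are not compared.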

How the data were processed

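Polyadenylated RNA from 30 samples (10 conditions, 3 replicates each) had been sequenced with a strand-specific kit as single reads of 50 bases. Per the labels and methods, the authors aligned reads with TopHat2 2.0.9, estimated FPKM per transcript with Cufflinks 2.1.1 and counted reads per gene with HTSeq. The deposited FPKM are per transcript and were summed per gene symbol. The deposited counts are raw reads per gene, and rows that name no gene were left out. Reads on genes were 73.0 to 77.8% (full serum) and 5.13 to 7.66% (stripped serum) of those on a gene, on no gene or ambiguous. Reads listed as not uniquely aligned were not part of that share. The submitters' processing notes name the build hg19 (GRCh37). Whether HTSeq counted by strand is not given in the sources used here.

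Full serum comparisons used edgeR 4.0.16 (R 4.3.3) on counts with TMM scaling, filterByExpr (minimum count 10) and the quasi-likelihood test. Stripped serum comparisons used limma 3.58.1 with a trend on log2(FPKM + 0.5) over genes at 0.5 FPKM or more in at least 3 samples. Fits covered all genes with Benjamini-Hochberg adjustment, and an adjusted p of at most 0.05 is a call. Scripts were tested on simulated data. Alternatives were DESeq2 1.42.0, edgeR on stripped serum counts, limma on full serum FPKM, other pseudocounts (0.1 and 1), no filter, centring on sample medians, 1 fit over all groups, a replicate block and leaving out each replicate; a 2-fold requirement and, for JQ-1, a minimum of 5 FPKM in the group without JQ-1 were added after seeing the data. A promoter motif and a marker gene that were also looked at are not reported here. No 2 of the 30 replicate pairs compared were identical, and 1 library stood apart from its group. Stem-loops and promoter motifs were searched in the genome and in RefSeq promoters.

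The members and lists were chosen with earlier results of these data known. The genes named in every comparison were HIST1H1C, HIST1H2AC, HIST1H2BD, HIST1H2BK, HIST1H4H and HIST2H2BE, plus up to 6 called members with the largest change, groups that do not overlap and a mean of at least 1 FPKM in the higher group. SLBP, NPAT, H1F0, H2AFX and H2AFZ were always followed, with up to 4 called genes of the lists on histone processing, chaperones and replacement histones. Other histone genes are named with their levels, or where a count of 5 or fewer is spelled out, and were then chosen after their values were seen.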

Additional observations from a re-analysis of the deposited data

Results flagged for a closer look

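The lines differed in their response to enzalutamide in full serum for HIST1H2BD, by -0.67 on the log2 scale, and for HIST1H2BK, by -0.35, as tested by the interaction in edgeR. Of 28 members tested, 0 were called higher and 2 lower, against 4.19% and 2.76% of all genes, which is close to that share. The HIST1H2BD call was lost in 8 of the fits that each left out 1 library. The JQ-1 effect differed between cells with and without DHT, as tested by the interaction in limma, for HIST1H3E (1.24), HIST1H2BG (0.53), HIST2H2BE (0.43) and HIST1H1C (0.39), which had the larger log2 change with DHT. It differed the other way for HIST1H1E (-1.03), HIST2H2AB (-0.88), HIST1H2BL (-0.67), HIST1H2BN (-0.65) and HIST1H2BK (-0.27). The value of HIST2H2AB, below 0.5 FPKM in every vehicle replicate, depends on the added 0.5 and is not read as an effect of DHT. Of 47 members tested in the JQ-1 interaction, 8 were called with a positive and 6 with a negative value, against 24.4% and 21.6% of all genes. The calls of HIST1H2BL and HIST1H2BG were lost in 9 and 7 of the fits without 1 library.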

How the results depend on the processing

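Calls in stripped serum rest on FPKM, since few reads there fall on genes and the strand setting is unknown. The counts of calls in this section are given without the share of all genes in each fit. They describe only how the calls depend on the processing. On counts, DESeq2 and edgeR called 0 and 1 members with enzalutamide, 2 and 4 with DHT, 1 and 1 for DHT against enzalutamide, 22 and 20 with JQ-1, 19 and 17 with JQ-1 on enzalutamide, 19 and 17 with JQ-1 on DHT and 2 and 3 in the interaction. Limma on full serum FPKM called 5 members with enzalutamide in V16D and 38 between the lines. Requiring a 2-fold change, added after seeing the data, left 0 with enzalutamide in MR49F in either serum, 0 in the line interaction, 6 with DHT, 2 for DHT against enzalutamide and 3 in the JQ-1 interaction. Requiring 5 FPKM in the group without JQ-1, also added after seeing the data, tested fewer members and left 21, 21 and 20 called with JQ-1 alone, on enzalutamide and on DHT.

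Leaving out 1 library gave 0 to 1 calls with enzalutamide in V16D, 1 to 6 in MR49F, 21 to 23 between the lines, 1 to 2 in the line interaction, 14 to 16 with enzalutamide, 27 to 31 with DHT, 19 to 25 for DHT against enzalutamide, 37 to 43 with JQ-1, 39 to 44 and 41 to 45 with JQ-1 on enzalutamide and DHT, and 9 to 15 in the JQ-1 interaction (9 without JQ-1 replicate 2 or DHT with JQ-1 replicate 2). The replicate numbers were not used to pair the samples. In stripped serum, deviations from the group means correlated by a mean of 0.0055 between same-numbered samples (-0.35 to 0.15). Between samples of different number the mean was -0.0028. These means over many genes do not settle whether same-numbered samples were handled together. The replicate block gave 23, 0, 4, 2, 19, 37, 22, 43, 43, 45 and 14 calls in the order in which the comparisons were described, against 24, 0, 4, 2, 15, 32, 22, 39, 43, 45 and 14 without it. Of the named genes it ended the calls of HIST1H2AD for DHT against enzalutamide and HIST1H2BL in the JQ-1 interaction.

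Signs turned where the change was small. Leaving out 1 library gave HIST1H4H in V16D with enzalutamide -0.0262 to 0.59. In MR49F with enzalutamide in full serum it gave HIST1H1C -0.0934 to 0.14, HIST1H2AC -0.16 to 0.0343 (also 0.00645 and 0.00906), HIST1H4H -0.17 to 0.11 (also 0.0171, and 0.0564 with limma) and HIST2H2BE -0.0339 to 0.0529. In stripped serum with enzalutamide it gave HIST1H2BK -0.000571 to 0.0295, which was -0.12 on counts with both tools. HIST2H2BE with DHT went to 0.00767 on centring. For DHT against enzalutamide, HIST1H2AC ran from -0.0318 (also -0.0103) to 0.0475 and HIST1H2BD from -0.14 to 0.0127 with 1 library left out, and HIST1H2BD was 0.0387 on centring and 0.12 and 0.11 with DESeq2 and edgeR. With JQ-1, HIST1H2BK went to 0.0803 and 0.0648 with DESeq2 and edgeR, and on enzalutamide to 0.0572 and 0.0409. In the JQ-1 interaction HIST1H2AC went to 0.25 and 0.23 on counts, and HIST1H2BD to -0.00202 without DHT replicate 1. The cause was not tested. Members below about 1 FPKM in stripped serum rest on few reads.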
